A study of Arabidopsis thaliana with 4 samples.

Results

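APETALA3 (AP3, AT3G54340) and PISTILLATA (PI, AT5G20240) are the B class floral organ identity genes of Arabidopsis thaliana, and both were found among the genes bound by AGAMOUS (AG), the C class protein. They were chosen by their locus identifiers and make up 2 of the 1958 genes in the authors' deposited target table. Of the 1421 deposited peaks, 3 are described here for these genes. The authors' table assigns 1 to AP3 and 1 to PI, and gives a weaker peak beside that of PI to other genes. AG bound AP3 with a score that ranked 2 in the whole list and PI with one that ranked 12. In both genes the strong peak was placed within 1000 bp of the 5' end.

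AP3 and PI encode MADS-domain proteins that act together as a heterodimer and specify petals and stamens. The C class protein AG, also of the MADS-domain family, specifies stamens and carpels, so B and C class proteins act in the same cells in the developing stamen. MADS-domain proteins bind DNA as dimers, at a short motif known as the CArG box, and AP3 and PI together maintain their own expression once it has been started.

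Binding was measured by chromatin immunoprecipitation and sequencing (ChIP-seq) in inflorescences, with an antibody against green fluorescent protein (GFP). The AG-GFP group carried AG joined to GFP, described in the series as fully functional, in AP1-GR ap1 cal plants. The negative control group was AP1-GR ap1 cal without the tagged protein, treated with the same antibody. Each group had 2 libraries. All plants were in the Ler-0 background, shared the ap1-1 and cal-1 mutations and the 35S:AP1-GR transgene, and were about 4 weeks old when given 10 µM dexamethasone, which starts flower formation in many meristems at once. Tissue was taken 4 days later, at about floral stage 4 to 5. The labels used here do not say which promoter drives AG-GFP or how many plants were pooled.

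Each peak carries 1 Poisson score, made by the authors, and a gene carries the highest score found in each of 5 regions from 3000 bp upstream to 1000 bp downstream. All scores and peak positions below are these deposited values. No value per library was given, so no score has a replicate error, the depth is unknown, and ranks describe this peak list alone. The whole inflorescence was sampled, so a peak cannot be assigned to petal, stamen or carpel primordia.

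The AP3 peak scored 5695.79 and lay on chromosome 3 from 20120922 to 20121669 (TAIR10). Its highest point was at 20121240. Among the 264 peaks of chromosome 3 it ranked 1, and in the whole list the one peak above it was that inside AG itself, with 12585.03. The AG peak was 5725 bp wide. The AG-GFP plants carried tagged AG that the control lacked, and whether this adds to the score at AG was not tested. The next peak below that of AP3 scored 5153.51 and lay upstream of SEP3, which encodes a cofactor of the floral organ identity proteins. It is also assigned to AT1G24265. After it came a peak of 4142.8 inside AT3G14220, a GDSL lipase gene by its annotation. The AP3 score therefore stood 1 place above that of SEP3 and well above the median of all peaks, 139.67.

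The main PI peak scored 2459.62 and lay on chromosome 5 from 6828744 to 6829262, with its highest point at 6828968. It ranked 3 among the 342 peaks of chromosome 5. Its neighbours in score were close. Just above it was a peak of 2578 assigned both to CCB1 (AT3G26710), which acts in assembly of the chloroplast cytochrome b6f complex, and to AT3G26700. Above that stood the peak of 2589.52 upstream of TOE3 (AT5G67180), an AP2-domain gene. Just below PI came a peak of 2363.18 upstream of AT3G10040, annotated as a transcription factor, which was also assigned to OMR1 (AT3G10050). The peak of 2044.38 upstream of ATH1 (AT4G32980), a homeobox gene, followed, and AT4G32990 was assigned to it as well. No replicate error is available to say whether neighbours in this order differ.

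**Figure D1:**
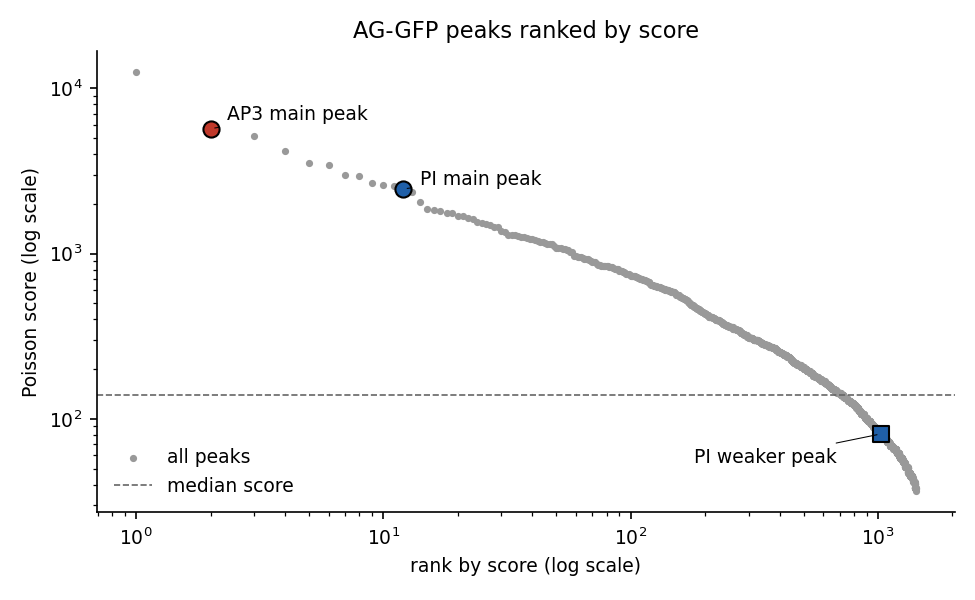
Poisson score of each of the 1421 AG-GFP peaks against its rank (both axes logarithmic), with the AP3 peak in red, the PI peaks in blue and the median score as a dashed line. The main peaks of AP3 (5695.79) and PI (2459.62) sit at the upper end and the weaker PI peak (81.04) lies below the median of 139.67.

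The AP3 score was 2.32 times the PI score, a difference of 1.21 on the log2 scale. The AP3 peak was also wider, at 748 bp against 519 bp for PI, and both were wider than the median peak of 234 bp. Among all peaks AP3 ranked 32 by width and PI ranked 99. Divided by peak width, the AP3 score was 7.61 and the PI score 4.74, against a median of 0.684, and these ranked 3 and 16. Of the 78 peaks between 500 and 800 bp wide, AP3 had the highest score and PI ranked 5, and the median of that class was 345.06.

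**Figure D2:**
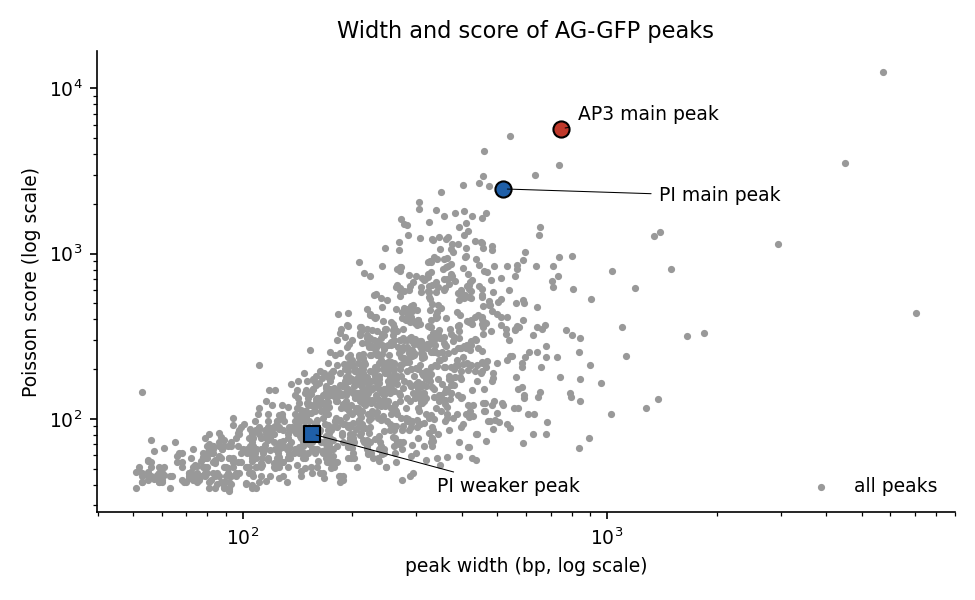
Width in bp against Poisson score for the 1421 AG-GFP peaks (both axes logarithmic), with AP3 in red and PI in blue. The AP3 peak has the highest score among peaks of 500 to 800 bp, while the weaker PI peak lies in the body of the list.

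By chromosome coordinate, which takes no account of strand, the highest point lay at a similar place in both main peaks. The highest point lay 318 bp from the low-coordinate end and 429 bp from the high-coordinate end of the AP3 peak. At PI these distances were 224 and 294 bp. As a share of the peak's extent this is 0.426 for AP3 and 0.432 for PI, both inside the middle range of all peaks (quartiles 0.379 and 0.583).

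PI had a weaker peak beside the main one that its row in the target table does not show. This peak scored 81.04 and lay on chromosome 5 from 6828218 to 6828372, 371 bp from the edge of the main peak, and the highest points of the pair were 689 bp apart. The table lists for PI 2459.62 within 1000 bp upstream and 0 in the other 4 regions. Each region keeps only its highest score. With no score listed at 1000 to 2000 bp, the weaker peak falls within the nearest upstream region, where the main peak masks it, if regions were scored by the highest point of a peak. At 155 bp wide it ranked 1029 by score, a value that 17 peaks of the list had in common. The table assigns the score of 81.04 here to the genes on the other side, BCB (AT5G20230), a blue copper-binding protein gene, within 1000 bp downstream, and AT5G20225, at 2000 to 3000 bp upstream. Of all peaks, 5.07% had a nearer neighbour than this pair, and 209 of the 1421 (14.7%) had another within 1000 bp.

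AP3 had no such companion peak. The nearest peaks lay 51234 bp away on the low-coordinate side, with a score of 396.63, and 49006 bp away on the other side, with 357.32. The median gap to the nearest peak was 15438 bp, and 78.8% of peaks had a nearer neighbour than AP3. Beyond PI, on the side of the gene, the next peak was 345706 bp away. On its upstream side 2 more weak peaks, of 98.32 and 50.77, lay within 60 kb of the main peak.

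**Figure D3:**
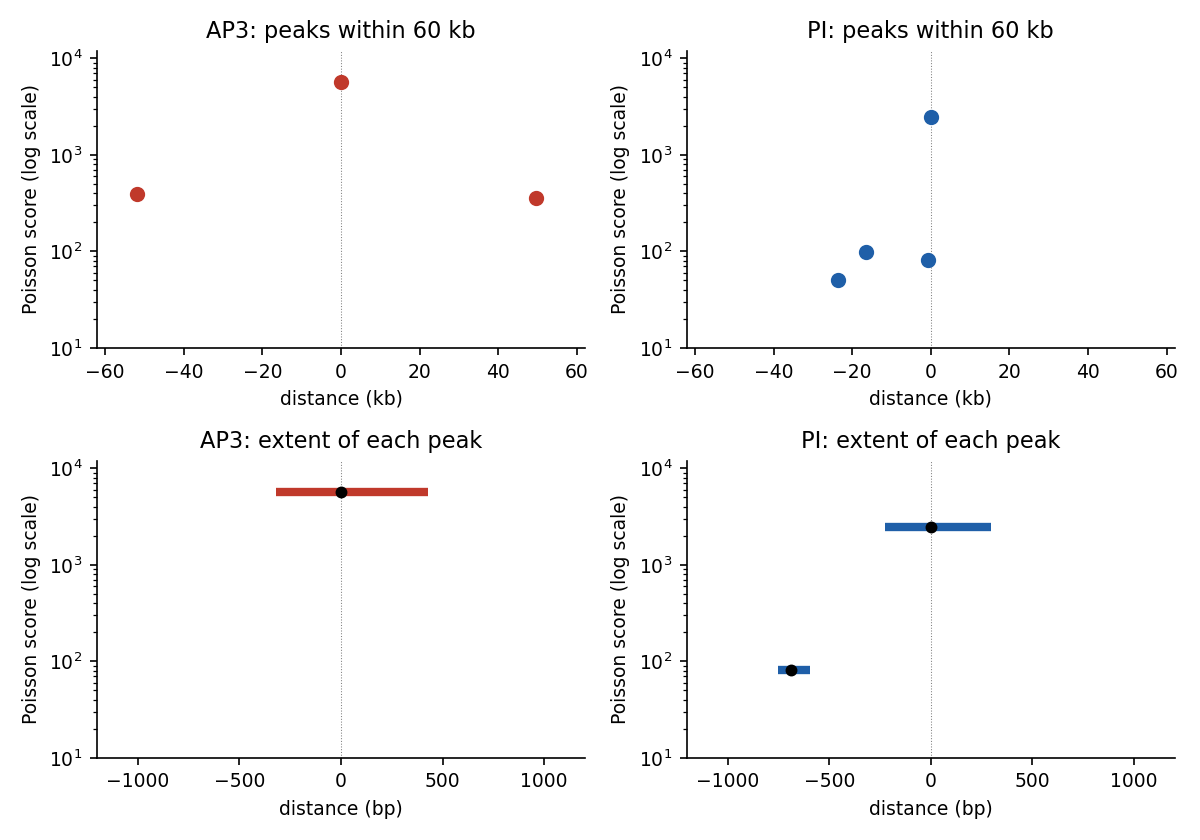
AG-GFP peaks around AP3 (left, red) and PI (right, blue), plotted by distance from the highest point of the main peak against the Poisson score (logarithmic). The upper panels show every peak within 60 kb as a point; the lower panels show the extent of each peak as a bar with its highest point in black, and the weaker PI peak lies 689 bp from the main one.

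The AP3 peak is shared with a neighbour and the main PI peak is not. In the authors' table the AP3 peak also gives 5695.79 to EMB1967 (AT3G54350), a gene needed in the embryo that codes for a protein with a forkhead-associated domain, as a peak within 1000 bp downstream of its 3' end. Which of these genes the site acts on cannot be read from its position. WRI1 (AT3G54320), a regulator of seed oil synthesis on the other side of AP3, was not in the table. The main PI peak was assigned to PI alone, and DIN10 (AT5G20250), the next protein-coding gene beyond PI, was not in the table. Of the 20 highest-scoring peaks, 10 were assigned to a single gene.

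The placement upstream depends on where a gene is taken to begin. In the RefSeq annotation of TAIR10.1, the highest points of both main peaks fall within the annotated spans of AP3 and PI, whereas the authors' table places both in the nearest upstream region and gives 0 inside the gene. Of the 689 genes with a peak in that region, 677 were in the RefSeq table, and among these the highest point likewise fell within the RefSeq span for 125 (18.5%). Exon, intron and UTR boundaries and genome sequence were not used here, so the peaks were not placed relative to these boundaries or CArG boxes.

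AP3 and PI had the same pattern over the 5 regions, with a score in the nearest upstream region and 0 in the rest. This pattern was held by 603 of the 1958 target genes (30.8%), whose median score was 134.67. Within this class AP3 ranked 1 and PI 5. By distance in log2(score + 1) over the 5 regions, the target genes most like AP3 were AT5G21280, annotated as a hydroxyproline-rich glycoprotein (distance 0.725, score 3446.61), BBX13 (AT1G28050), which encodes a B-box zinc finger protein (0.960, 2927.42), and CCB1 (1.14). PI came next, at 1.21. Those most like PI were AT3G10040 (0.0577), CCB1 (0.0678) and BBX13 (0.251). Because these genes share the region, the measure ranks them by score alone.

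At gene level, 18 of 27444 protein-coding genes (0.0656%) had a highest score at or above that of PI. Beside AP3 and PI these included the organ identity and cofactor genes AG, SEP3 and AP1, and GRF5, a growth-regulating transcription factor gene. The others were EMB1967, TOE3, BBX13, EXGT-A3, CCB1, AT1G24265, AT3G14220, AT5G21280, AT3G13950, AT1G28040, AT1G28060 and AT3G26700. Several of the 18 share 1 peak, which is why PI ranked 18 among target genes and 12 among peaks.

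The closest relatives of AP3 and PI among MADS-box genes are the B-sister genes, which act in ovules and the seed coat. TT16 (AT5G23260) was a target, with 308.23 within 1000 bp upstream, on chromosome 5 from 7835233 to 7835451, and 188.32 at 2000 to 3000 bp upstream. GOA (AT1G31140) was not in the table. The score of TT16 ranked 431 among target genes, against 2 for AP3 and 18 for PI.

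Genes known to control AP3 and PI, or to act with them, were listed with earlier results of these data known. Their shares therefore describe the list only. Of 23 such genes, 12 (52.2%) were in the target table, against 6.62% of all protein-coding genes (1817 of 27444). At or above the median peak score were 10 of the 23, against 3.42% of all protein-coding genes. The median score of the 12 was 800.28, against 143.81 for all protein-coding targets. At or above the score of PI were 3 of the 23 (13.0%), against 0.0656% of all protein-coding genes. These were AG, the gene of the tagged protein, SEP3 and AP1, and AG alone scored above AP3. The highest-scoring peaks of AG and AP1 were wider than 1000 bp, unlike those of SEP3, AP3 and PI. Scores in this list were not divided by width.

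Among the activators of the B class genes, UFO, the F-box protein that works with LFY to start AP3 expression, scored 373.97 at 2000 to 3000 bp upstream. LFY scored 58.19 in each of the 2 nearest upstream regions, below the median peak. AP1, which also promotes AP3 expression and is the source of the inducible transgene, scored 3529.42 inside the gene. It also scored 1351.75 at 2000 to 3000 bp upstream. The peak of 3529.42 was broad, on chromosome 1 from 25982690 to 25987190, against widths of 748 bp at AP3 and 519 bp at PI. ASK1, which joins UFO in a ubiquitin ligase complex, was not in the table.

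Among the cofactor and class A genes, SEP3 had 454.8 inside the gene beside its upstream peak of 5153.51, and SEP2 had 740.69 within 1000 bp upstream. AP2, which opposes AG, scored 859.87 at 1000 to 2000 bp upstream and 541.79 at 2000 to 3000 bp upstream. FUL, a relative of AP1, had scores of 241.9, 121.84 and 179.13 in 3 regions. SEP1, SEP4 and CAL were not in the table.

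The flowering genes SVP, SOC1 and AGL24 restrain floral organ identity genes in the youngest flowers. SVP scored 1077.97 at 2000 to 3000 bp upstream and 722.17 inside the gene. SOC1 scored 908.49 within 1000 bp upstream, 524.78 at 2000 to 3000 bp upstream and 143.81 inside the gene. AGL24 had only 58.19, inside the gene. SUP, which keeps AP3 expression out of the carpels, scored 365.01 within 1000 bp upstream, on chromosome 3 from 8241238 to 8241431.

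A further 7 regulators were not in the table. They were SEU and LUG, which form a co-repressor complex, CLF, a Polycomb histone methyltransferase, EMF1, which acts with Polycomb proteins, RBE, a zinc finger gene of petals, TFL1, which keeps the shoot meristem from forming flowers, and PAN, which acts on floral organ number.

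A list of 12 genes drawn up as acting downstream of AP3 and PI or in the organs they specify held 9 targets (75%, against 6.62% of all protein-coding genes), with a median score of 373.97. It too was drawn up with earlier results of these data known, so the share describes the list only. SUP, UFO and AP1 belong to this list as well as to the one above. The highest scores after AP1 were those of ATH1, with 2044.38 within 1000 bp upstream, and CRC, a YABBY gene of carpels and nectaries, with 1514.19 at 2000 to 3000 bp upstream. ROXY1, a glutaredoxin gene of petals and anthers, scored 630.5 at 1000 to 2000 bp upstream and BOP2, an organ boundary gene, 204.08 within 1000 bp upstream.

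The lowest scores of the 9 belonged to SPL and DAD1. SPL, which starts sporogenesis, had 162.95 at 2000 to 3000 bp upstream, and DAD1, a lipase gene of jasmonate synthesis needed for anther opening, had 47.19 downstream of the gene. NAP, a NAC gene known as a direct target of AP3 and PI, was not in the table, and neither were the GATA factor genes GNC and GNL, which AP3 and PI are known to repress. Counting only sites in the gene or in the nearest 1000 bp upstream, 4 of the 12 were left (33.3%, against 3.31% of all protein-coding genes).

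**Figure D4:**
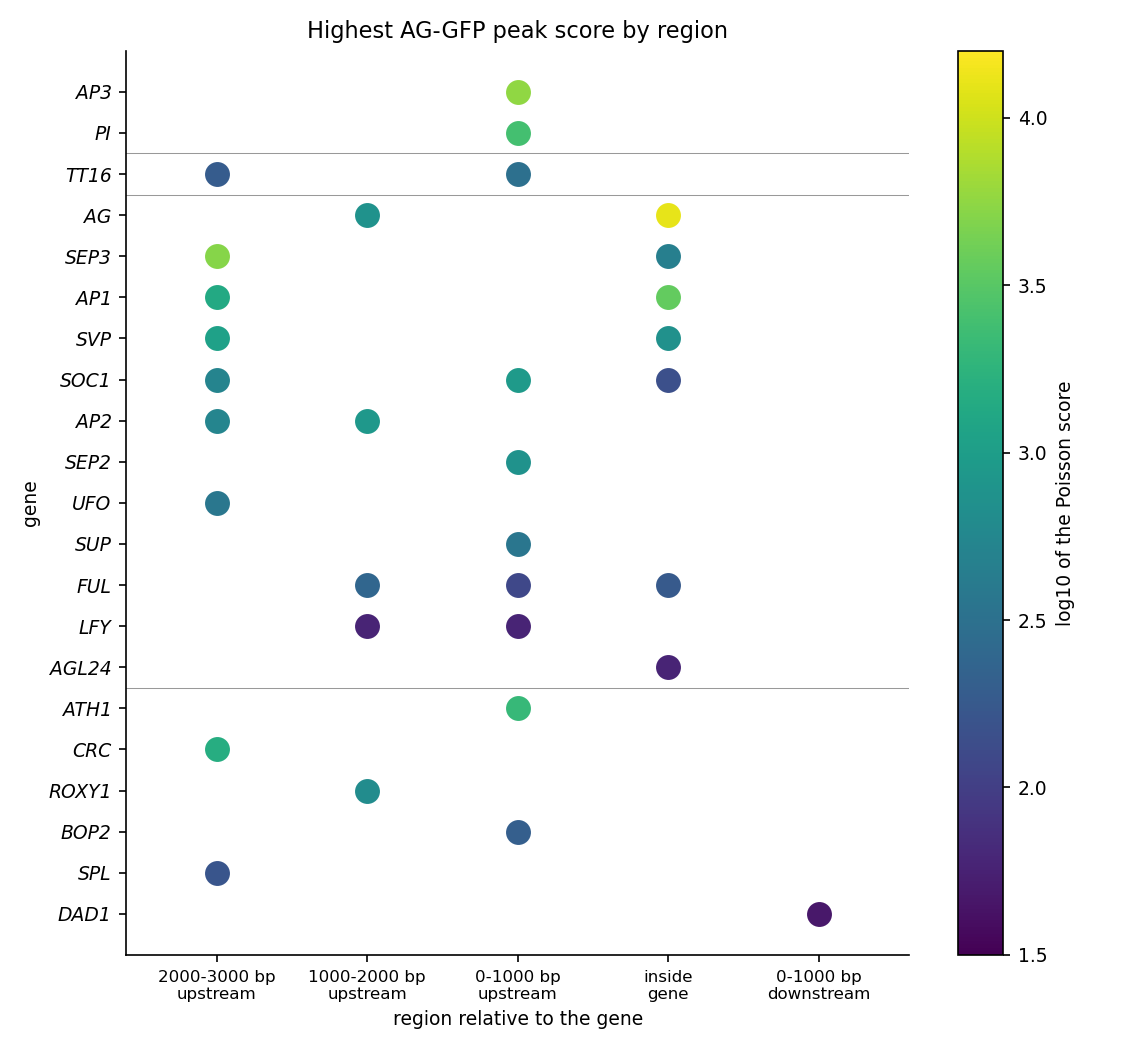
Highest Poisson score (colour, log10 scale) in each of the 5 regions of the target table for AP3 and PI, for TT16, for the 12 bound regulators and partners and for the bound genes of the downstream list, with lines between these blocks; UFO, SUP and AP1 are drawn once. AP3 and PI have a score in the nearest upstream region alone, a pattern shared here by SEP2, SUP, ATH1 and BOP2.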

How the data were processed

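The 2 tables deposited by the authors were used, one of peaks and one of target genes. Positions are on TAIR10, as the submitters' processing notes name it. How reads were aligned, peaks called and replicates combined is not given in the sources used. Each score is the authors' Poisson score per peak, per the file headers, and a gene's scores are the highest per region. The headers of the score and peak position columns were exchanged in the deposited list, and the columns were read by their values: for all 1421 peaks the whole numbers lie between start and end.

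Ranks give tied scores the best place. Gaps were counted between peak edges. Peaks were tied to genes by equal score on the same chromosome within 3000 bp. Gene names and order came from the RefSeq table of TAIR10.1, which held 1916 of the 1958 target genes; none of its coordinates is printed. The lists were compared with all 27444 protein-coding nuclear genes by count, with no test. The members and lists were chosen with earlier results of these data known.

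The named genes were AP3 and PI, genes sharing or flanking their peaks, 2 peaks on either side in score and all list members. The 3 target genes most like AP3 and the 3 most like PI were also named. GRF5, the other genes scoring at or above PI and the weaker PI peak were chosen after their values were seen. Ranking and gap code was checked on simulated peaks. Python 3.11.15 and pandas 2.3.3 were used.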

Additional observations from a re-analysis of the deposited data

How the results depend on the processing

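Among peaks not below the median score, the ranks of AP3 (2) and PI (12) were unchanged. Among peaks at most 1000 bp wide, AP3 ranked 1 and PI 10. By score divided by width they ranked 3 and 16, and on their own chromosomes, a comparison chosen after seeing the data, 1 and 3. As target genes they ranked 2 and 18, and by the score within 1000 bp upstream 1 and 5; among peaks PI ranked 12. The difference of the AP3 and PI scores themselves was 3236.17, in the same direction as on the log2 scale. The regulator list held 10 targets both when weaker peaks than the median were left out and when only the gene and its nearest 1000 bp upstream counted. The downstream list held 8 and 4 under these settings, and the count of 1 B-sister gene did not move. Of all protein-coding genes, 3.42% and 3.31% were targets under the same settings. No paired analysis was possible because the deposited tables hold no value per library, and leaving out a library could not be done for that reason. The search for CArG boxes and the overlap of whole peaks with flanked genes were not run, as sequence and strand were not used here. Without depth or replicate scores, the order of peaks close in score, such as PI and those on either side, is not known to be stable.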
